A study of Bos taurus with 6 samples.

Results

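The 10 genes that carry the first steps of a cell's response to lipopolysaccharide (LPS), the outer-membrane component of Gram-negative bacteria, were followed through the MIRA-Seq libraries of bovine dermal fibroblasts. They are LBP, CD14, LY96 and TLR4, which bind and sense LPS, the adaptors MYD88, TIRAP, TICAM1 and TICAM2, and the kinase IRAK4 with the ubiquitin ligase TRAF6. The genes were chosen by name, and their windows by the gene symbol printed beside each 3 kb window of the deposited files. The 10 symbols, of 26227 labelled genes, stood on 64 windows, and the window upstream of each gene brought the set to 74 of 902984 windows. Of the 10 upstream windows, 8 carried no gene label. The upstream window of MYD88 was labelled as coding sequence of ACAA1, and that of IRAK4 as coding sequence of PUS7L, both on the opposite strand.

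LPS is handed by the plasma protein LBP to CD14, and from there to the receptor pair of TLR4 and LY96 (MD-2). The engaged receptor recruits adaptors in pairs. TIRAP bridges it to MYD88, which assembles IRAK kinases with TRAF6 and leads to NF-κB and inflammatory cytokines, while TICAM2 (TRAM) bridges it to TICAM1 (TRIF), which leads to type I interferon. Fibroblasts are not professional immune cells, but they carry this pathway. Methylation of CpG sites around a gene start commonly goes with low transcription, whereas methylation within the transcribed body is common in active genes.

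Each of 3 Holstein heifers gave a fibroblast culture at 5 months and another at 16 months of age, so that there was 1 library per animal and age (n = 3 per age). All cultures were at passage 5, untreated and without LPS exposure, and the 3 animals had been selected by the study as mid-level responders to LPS from a larger collection. In MIRA, methyl-CpG binding proteins pull down sonicated DNA, and the reads in a window therefore rise with methylation and also with the number of CpG sites. Signal is given as RPKM, the reads of a window per kilobase and per M matched reads of the library. Depth ran from 19.9 to 43.6 M counted reads per library. The shallowest pair, the 5-month library of animal 1 and the 16-month library of animal 2, had no reads in 32.4% and 25.5% of all windows, against 6.70% to 16.8% in the other 4. These 2 libraries are called the zero-rich libraries here. The labelled cell type could not be checked, because the files hold DNA windows and no expression.

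Most windows of the LPS pathway genes held little signal, and 4 windows in 3 adaptor genes stood well above the rest. The median over the 74 windows was 0.0496 RPKM, beside 0.0400 over all labelled windows and 0.0293 over all windows. It rested on a median of 7 reads per library. Reads were present in all 6 libraries in 49 of the 74 windows. The study's division between low and high methylation, 0.5 RPKM, was set on promoters and gene bodies. Here it is applied to windows and to sums of windows, which are other regions. It was exceeded by 4 windows (5.41%), beside 9.29% of all labelled windows and 5.64% of all windows. These were a window of MYD88, the first window of TIRAP and both windows of TICAM1. All 4 carried a coding-sequence label, as did 41 of the 64 windows labelled with an LPS gene. Over the genome 18.4% of windows with coding sequence and 4.84% of labelled windows without it exceeded 0.5 RPKM.

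**Figure D1:**
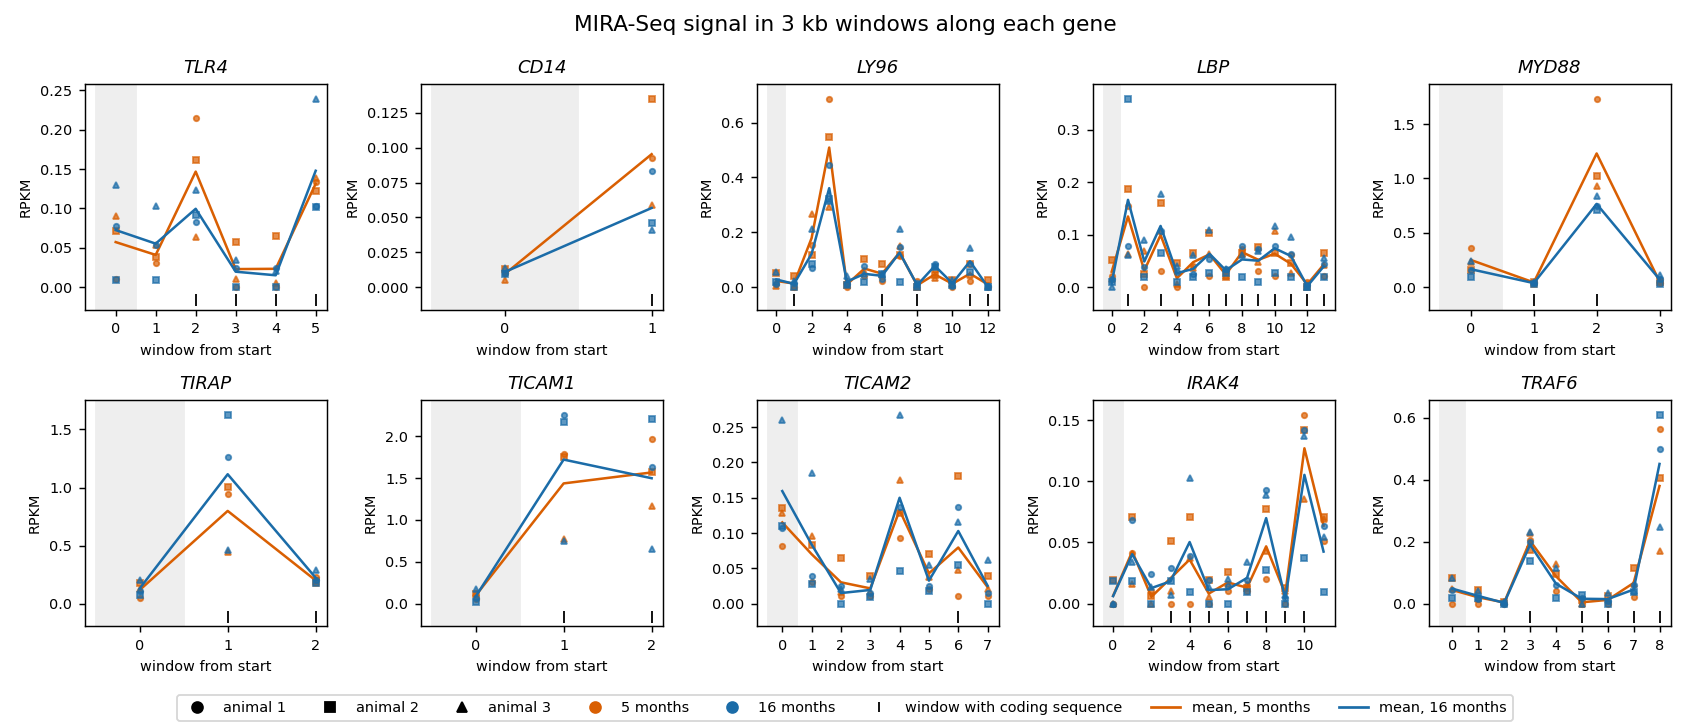
RPKM (y axis, a separate scale for each gene) in each 3 kb window (x axis) along the 10 genes, where window 0 is the upstream window (shaded) and window 1 is the first labelled window on the gene's strand. Symbols are the 6 libraries, lines are the means of 3 libraries per age, and ticks below mark windows with coding sequence. A single window dominated MYD88 (mean 0.997 RPKM), LY96 (0.435 RPKM) and TRAF6 (0.416 RPKM).

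LBP, the carrier that extracts LPS from membranes and micelles, was labelled on the plus strand of chromosome 13 from 67872797 to 67911796 (UMD v3.1, 13 windows, 11 with coding sequence). Its highest window by mean was the first, which holds coding sequence 1, but it was the highest in 3 of 6 libraries only, both of animal 2 among them. In what follows, 3 values at an age are those of animals 1, 2 and 3 in that order. The first window of LBP had 0.154, 0.187 and 0.0639 RPKM at 5 months, and 0.0783, 0.360 and 0.0616 RPKM at 16 months. Both libraries of animal 2 were above the other 4. The other windows of the gene averaged at most 0.108 RPKM, and the body as a whole 0.0482 ± 0.0203 RPKM (SD, n = 6), below the all-gene body median of 0.0817 RPKM.

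CD14, the co-receptor that passes LPS to the receptor, was a single labelled window on the minus strand of chromosome 7 (53447546 to 53450545) and has no body in this division. The window had 0.0923, 0.135 and 0.0586 RPKM at 5 months. At 16 months it had 0.0832, 0.0461 and 0.0410 RPKM. The younger culture was above the older one in each animal, but the ranges of the 2 ages overlapped. Its 69 reads over 6 libraries make each value imprecise. Taken with its upstream window, the start region of CD14 averaged 0.0431 ± 0.0181 RPKM (SD, n = 6), above 43.3% of all genes.

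LY96, which holds the lipid part of LPS in its pocket, spanned 12 windows on the plus strand of chromosome 14 (39368947 to 39404946). Its start was the lowest of the 10 genes, at 0.0187 ± 0.0180 RPKM (SD, n = 6), above 19.4% of all genes. In contrast, the third window (39374947 to 39377946), which carries no coding sequence, held 41.9% of the reads of the gene. It had 0.687, 0.547 and 0.293 RPKM at 5 months, and 0.445, 0.323 and 0.315 RPKM at 16 months. It was the highest window of the gene in 6 of 6 libraries, and the second window followed with 0.150 RPKM.

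TLR4, the signalling receptor, covered 5 windows on the plus strand of chromosome 8 (108826087 to 108841086). Its start region had 0.0205, 0.0547 and 0.0719 RPKM at 5 months, and 0.0660, 0.00922 and 0.116 RPKM at 16 months. The zero-rich libraries were the lowest pair, with 4 and 2 reads, and the part of depth in this was not tested. The same pair was lowest at the starts of TICAM2 and TRAF6, and over all genes at 28.2% of starts. The mean of 0.0564 ± 0.0386 RPKM (SD, n = 6) sat next to the all-gene start median of 0.0529 RPKM. Signal was higher further in. The second, with coding sequence 1, averaged 0.123 ± 0.0566 RPKM and the fifth, with coding sequence 3, 0.140 ± 0.0512 RPKM (SD, n = 6), and both were above the first window in 6 of 6 libraries. The windows between them averaged 0.0212 and 0.0191 RPKM.

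MYD88, the adaptor shared by nearly all Toll-like receptors, had 3 windows on the plus strand of chromosome 22 (11644767 to 11653766), and 90.1% of its reads fell in the second (11647767 to 11650766, coding sequence 2). That window had 1.73, 1.02 and 0.932 RPKM at 5 months, and 0.743, 0.710 and 0.841 RPKM at 16 months. The first window, with coding sequence 1, averaged 0.0397 ± 0.00965 RPKM (SD, n = 6). Within a library the second window exceeded the first by 17.6 to 33.8 times. The upstream window, at 0.207 ± 0.0927 RPKM, exceeded the first in 6 of 6 libraries. It lies in ACAA1, a peroxisomal thiolase gene, so that 181 of the 216 reads counted to the start region of MYD88 stood under another gene's label.

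TIRAP, the membrane-bound bridge to MYD88, had 2 windows on the plus strand of chromosome 29 (30013419 to 30019418). Of its reads, 81.5% were in the first window, with coding sequence 1. It had 0.944, 1.00 and 0.447 RPKM at 5 months, and 1.26, 1.62 and 0.458 RPKM at 16 months. Animal 3 was low at both ages. The second window averaged 0.211 ± 0.0414 RPKM (SD, n = 6) and varied far less between libraries, from 0.175 to 0.287 RPKM.

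TICAM1, the adaptor towards interferon, had the highest signal of the 10 genes. Both of its windows, on the plus strand of chromosome 7 (20546246 to 20552245), are labelled with its coding sequence 1. The first had 1.78, 1.75 and 0.772 RPKM at 5 months, and 2.25, 2.17 and 0.746 RPKM at 16 months. The second had 1.97, 1.57 and 1.16 RPKM at 5 months and 1.63, 2.20 and 0.657 RPKM at 16 months. By RPKM animal 3 was again the lowest at both ages in both windows. After TMM scaling it was not in the second window at 5 months, with 8.83, 8.08 and 9.44 CPM. Upstream of the gene the signal dropped to 0.0904 ± 0.0559 RPKM (SD, n = 6), and the first window exceeded it in 6 of 6 libraries.

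TICAM2, the bridge between TLR4 and TICAM1, lay on the minus strand of chromosome 10 (4372001 to 4393000, 7 windows, 1 with coding sequence). Its highest means were 0.141 ± 0.0756 RPKM in the fourth window, 0.137 ± 0.0629 RPKM upstream and 0.0912 ± 0.0638 RPKM in the window with coding sequence (SD, n = 6). The first window averaged 0.0770 ± 0.0600 RPKM, and the other labelled windows 0.0205 to 0.0377 RPKM. Its start region had 0.0564, 0.109 and 0.112 RPKM at 5 months, and 0.0734, 0.0691 and 0.222 RPKM at 16 months. The highest value was the 16-month culture of animal 3. Thus the bridging adaptors TIRAP and TICAM2, which serve the same receptor, differed in start signal, at 0.540 and 0.107 RPKM, and TIRAP was above TICAM2 in each of the 6 libraries.

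IRAK4, the kinase that starts the MYD88 branch, spanned 11 windows on the minus strand of chromosome 5 (36875806 to 36908805) and was low throughout. Its start region averaged 0.0239 ± 0.0134 RPKM and its body 0.0346 ± 0.0152 RPKM (SD, n = 6), above 25.4% and 27.1% of all genes. The highest window was the tenth, with coding sequence 11, at 0.116 ± 0.0456 RPKM. The start had 3 to 14 reads per library, so that its order among libraries was not resolved at this depth. Its upstream window, labelled PUS7L, held 5 reads in all.

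TRAF6, the ubiquitin ligase on which the pathway converges before NF-κB, had 8 windows on the minus strand of chromosome 15 (67766457 to 67790456). Its start region had 0 reads in the 5-month culture of animal 1, which allows up to 0.0154 RPKM, and 0.0644 and 0.0319 RPKM in those of animals 2 and 3. The 16-month cultures had 0.0293, 0.0184 and 0.0616 RPKM. The last window (67766457 to 67769456), with coding sequence 6, held 354 of the 708 reads of the gene. It had 0.564, 0.406 and 0.170 RPKM at 5 months and 0.499, 0.608 and 0.246 RPKM at 16 months. Animal 3 was low at both ages there as well. The third window, with coding sequence 1, was the next highest with 0.197 ± 0.0356 RPKM (SD, n = 6). There animal 3 was above the other 4 libraries, with 0.229 and 0.233 RPKM against 0.138 to 0.205 RPKM, and after TMM scaling with 1.86 and 1.73 CPM against 0.743 to 0.979 CPM.

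**Figure D2:**
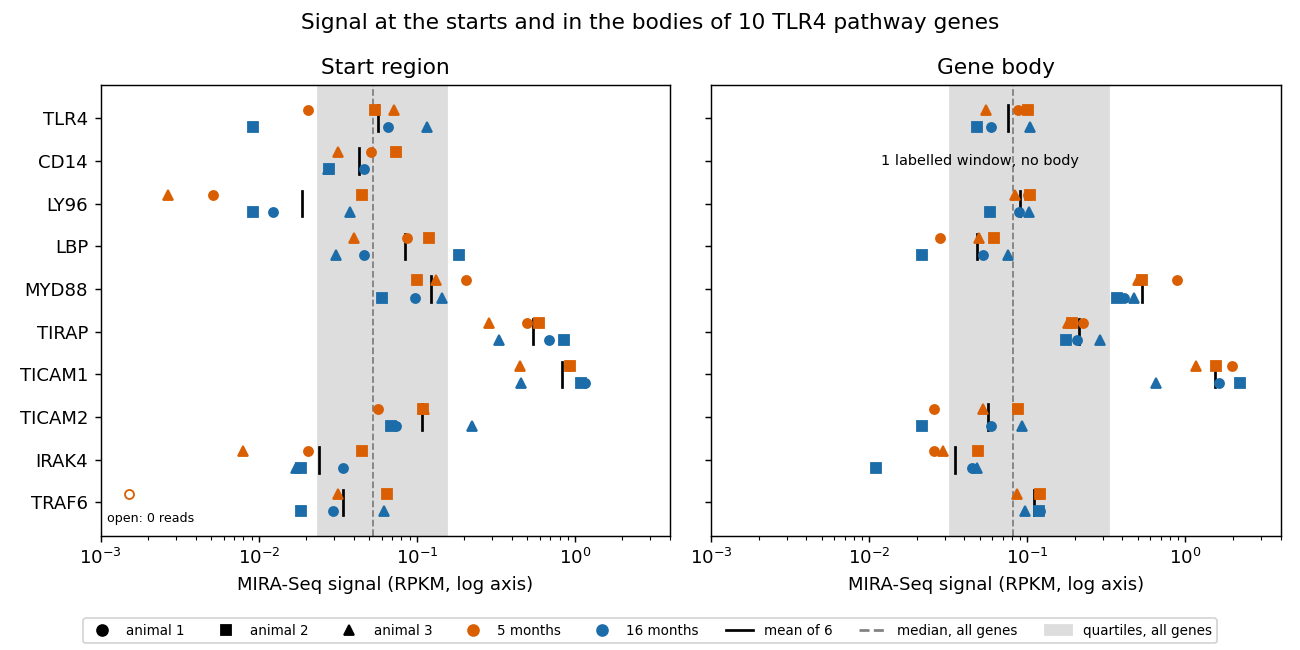
RPKM on a log axis of the start region (first labelled window and the window upstream of it) and of the body (all further labelled windows) of each gene. Each point is a library, black bars are means of 6 libraries, the dashed line is the median of all genes (0.0529 RPKM for starts, 0.0817 RPKM for bodies) and the grey band holds the middle of all genes from the lower to the upper quartile. TICAM1 and TIRAP starts and TICAM1 and MYD88 bodies lie to the right of the band by their means.

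By mean, the starts ranked TICAM1 (0.834 ± 0.309 RPKM, SD, n = 6), TIRAP (0.540 ± 0.214), MYD88 (0.123), TICAM2 (0.107), LBP (0.0846), TLR4 (0.0564), CD14 (0.0431), TRAF6 (0.0343), IRAK4 (0.0239) and LY96 (0.0187). Of the 9 steps in this order, only that from TIRAP to MYD88 was larger than the spread of both genes over libraries, although TICAM1 was above TIRAP in 6 of 6 libraries. TICAM1 and TIRAP, above 95.2% and 91.7% of all genes, were the 2 of 10 starts over 0.5 RPKM, beside 9.00% of 26153 genes. Apart from TICAM1 and TIRAP, no start was over that level in any library. This held on the receptor side of the pathway (LBP, CD14, LY96 and TLR4) and equally at MYD88, TICAM2, IRAK4 and TRAF6. In the bodies TICAM1 (1.53 ± 0.558 RPKM, SD, n = 6), MYD88 (0.530 ± 0.185), TIRAP (0.211 ± 0.0414), TRAF6 (0.110 ± 0.0147) and LY96 (0.0898 ± 0.0178) followed in this order, and each of the 4 steps between them was larger than the spread of both genes. No step from LY96 down through TLR4 (0.0758), TICAM2 (0.0562), LBP (0.0482) and IRAK4 (0.0346) was larger than that spread. Still, LBP was above IRAK4 in 6 of 6 libraries, and the lowest LY96 value (0.0578 RPKM) was above the highest of IRAK4 (0.0489 RPKM). By their means, 2 of 9 bodies exceeded 0.5 RPKM, beside 18.3% of 21448 genes.

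Whether signal within a gene sits at the start or in the body was then compared per kilobase, over the 3 animals with both ages summed. Start signal was lower than body signal at LY96, MYD88 and TRAF6, and higher at TIRAP. The log2 ratio of start to body was -2.26 ± 0.35 (SE, n = 3 animals) at LY96, -2.12 ± 0.26 at MYD88, -1.60 ± 0.33 at TRAF6 and 1.30 ± 0.31 at TIRAP, with adjusted p of 0.000327, 7.70e-05, 0.0019 and 0.0042 (edgeR quasi-likelihood test, Benjamini-Hochberg over 20459 genes). These 4 of 9 genes met the criteria of an FDR below 0.1 and a fold of at least 2, as did 56.4% of all genes tested. The start of MYD88 includes the window labelled ACAA1, and with the first window alone its log2 ratio was -3.69. By direction, 3 of 9 were lower at the start beside 41.4% of all genes, and 1 of 9 was higher beside 15.0%.

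**Figure D3:**
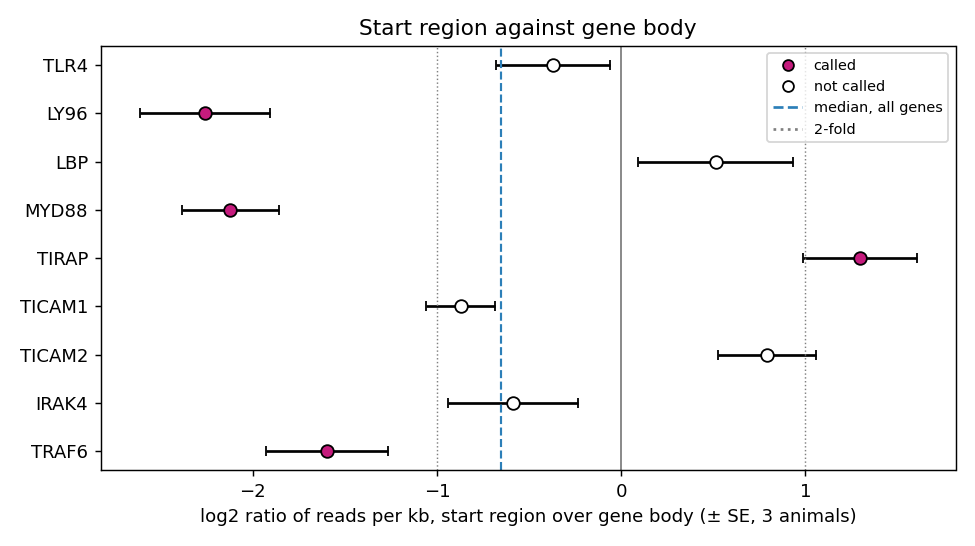
Log2 ratio of reads per kilobase in the start region over the body (x axis) for the 9 genes with a body. Bars are standard errors of the edgeR fit to 3 animals, from a variance partly shared over genes. Filled points passed the criteria, the dashed line is the median of all genes (-0.65) and dotted lines mark a 2-fold difference. LY96, MYD88 and TRAF6 lie on the left and TIRAP on the right of the dotted lines.

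The other 5 genes were not called. TICAM1 had a log2 ratio of -0.87 ± 0.19 (SE, n = 3 animals, adjusted p = 0.00232 by edgeR), a difference past the FDR limit but under 2-fold, and TICAM2 had 0.79 ± 0.27 (adjusted p = 0.0237), likewise under 2-fold. Counting the first window alone as the start took the ratio to 0.02 at TICAM1 and to 0.27 at TICAM2 (adjusted p = 0.509), neither past the FDR limit. Under the same definition LBP was called at 1.31 (adjusted p = 0.0161), from 0.51 ± 0.42 with the upstream window. IRAK4 (-0.59 ± 0.35) and TLR4 (-0.37 ± 0.31) were close to the all-gene median of -0.65. Without animal 2 the TIRAP ratio was 1.00, just under 2-fold, and without animal 3 LBP was called at 1.11.

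The main question put to these libraries by the study was whether methylation differed between the ages, and at the LPS genes no difference passed the test. The study itself reported fewer 3 kb windows over the genome at the same limits than are counted below, and none at promoters. Why the counts differ was not tested. Of the 74 windows, 8 held enough reads to be tested, and 0 of these were called between ages, beside 0.185% of all 104658 windows tested (194 by the quasi-likelihood test, 208 by the likelihood-ratio test and 7429 at an unadjusted p under 0.05). Likewise 0 of 8 start regions tested were called, beside 0.0324% of 18545 (6 by the quasi-likelihood and 9 by the likelihood-ratio test, 625 at an unadjusted p under 0.05). Of the gene bodies 0 of 9 were called, beside 0.0163% of 18363 (3 by either test, 97 at an unadjusted p under 0.05). For starts and for bodies these are fewer small p-values than chance alone would give, so that both tests were conservative over genes as a whole. For a gene whose animals lay far apart they need not be. The starts of LY96 and IRAK4 had too few reads to be tested. With so few calls over the genome, 0 calls among the LPS genes does not set them apart, and a p above the limit does not show that the ages were equal.

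MYD88 had the lowest p among the LPS genes. Its second window was higher in the 5-month culture in 3 of 3 animals, at 1.23 ± 0.439 RPKM against 0.765 ± 0.0684 RPKM (SD, n = 3), and the ranges of the 2 ages did not overlap. After TMM scaling they did, with 5.27 to 7.77 against 3.63 to 6.25 CPM. The log2 fold change was 0.62 ± 0.21 (SE, edgeR, adjusted p = 0.284, unadjusted p = 0.00318). As for all windows compared between ages, the variance behind this SE and p was mostly shared over windows. Neither therefore measures the spread of the 3 animals at this window. The 5-month culture of animal 1, a zero-rich library, had the highest value, and without animal 1 the log2 fold change was 0.37. The whole body (0.63 ± 0.35, adjusted p = 1.00 by edgeR) had 0.641 ± 0.214 RPKM at 5 months and 0.418 ± 0.0537 RPKM at 16 months (SD, n = 3), the only one of the 9 bodies with ages apart, beside 1.36% of all bodies. Without animal 1 the log2 fold change of the body was 0.18. The window passed the FDR limit when animal 3 was left out (0.84, adjusted p = 0.0153 by edgeR) and the body when animal 2 was (0.86, adjusted p = 0.0681), both under 2-fold. Those fits called more over the genome as well, with 1128 windows in place of 194 and 200 bodies in place of 3. The TICAM1 body also passed the FDR limit in the fit without animal 2 (0.79, adjusted p = 0.0739), likewise under 2-fold, but turned to -0.23 without animal 3.

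At the other adaptors the differences were smaller or turned between animals. The first window of TIRAP had a log2 fold change of -0.43 ± 0.21 (SE, edgeR, adjusted p = 0.669), with higher RPKM at 16 months in 3 of 3 animals, by 0.447 against 0.458 RPKM in animal 3. After TMM scaling animal 3 turned, with 3.64 CPM at 5 and 3.40 CPM at 16 months. TICAM1 had -0.23 ± 0.22 in its first and 0.16 ± 0.22 in its second window. In its body the difference was -0.88 in animal 2 and 1.18 in animal 3. At the start of TICAM2 the log2 fold change was -0.24 ± 0.37.

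At the receptor itself the start of TLR4 had a log2 fold change of -0.11 ± 0.55 (SE, edgeR, adjusted p = 1.00), with an approximate 95% interval of -1.19 to 0.97. The variance behind this SE, as for all starts and bodies compared between ages, was shared over genes. The interval therefore does not measure the spread of the 3 animals at this gene. The 3 animals differed in direction, with -1.44 in animal 1, 1.83 in animal 2 and -0.22 in animal 3, and in animals 1 and 2 the lower culture was the zero-rich library. The log2 fold change was 0.35 without animal 1 and -0.85 without animal 2. The interval includes a 2-fold lower value, so that a difference of that size was not excluded. As the interval does not follow the spread of the 3 animals, a 2-fold higher value was not excluded either. CD14 had 0.60 ± 0.63, higher at 5 months in 3 of 3 animals (0.27, 0.85 and 0.64), with an interval of -0.62 to 1.83, and 0.28 without animal 2. The start of LBP (0.08 ± 0.43) differed in direction between animals, with 1.01, -1.13 and 0.79. The body of LY96 had 0.30 ± 0.35, and its window with the most signal 0.41 ± 0.26 (adjusted p = 0.841).

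TRAF6 and IRAK4 also varied between animals. The TRAF6 start had -0.38 ± 0.75 (SE), led by the library with 0 reads, and its body -0.01 ± 0.38, with all 6 libraries between 0.0867 and 0.121 RPKM. The IRAK4 body had 0.18 ± 0.50, with -0.59, 1.51 and -0.29 in the 3 animals. The zero-rich libraries were the lowest pair for the bodies of IRAK4, LBP and TICAM2, as for 31.6% of all bodies. Over the genes tested, 3 of 8 starts and 7 of 9 bodies had positive values, beside 55.1% and 56.2% of all genes. The medians were -0.14 for starts (all genes 0.05) and 0.18 for bodies (all genes 0.04).

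**Figure D4:**
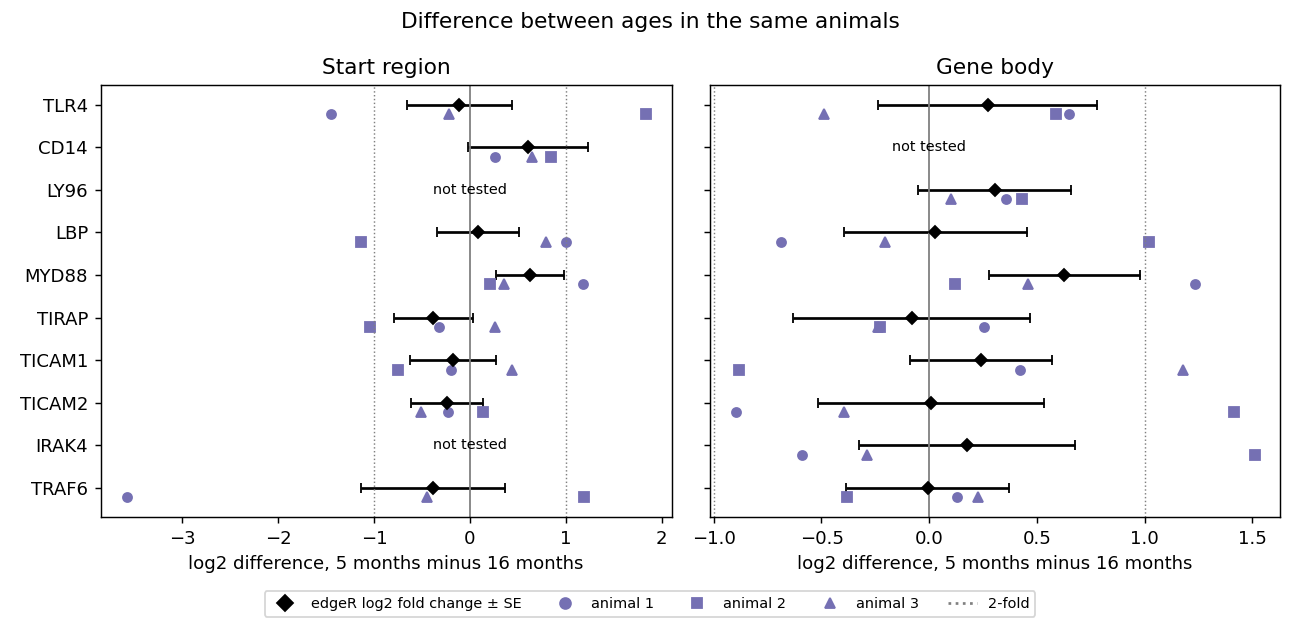
Log2 difference between the ages (x axis, positive where the 5-month culture was higher) for start regions and bodies. Diamonds with bars are edgeR log2 fold changes with SE, from a variance shared over genes. Purple symbols are the differences within animals 1, 2 and 3, and dotted lines mark 2-fold. Each diamond lies within the dotted lines, and the animals lie on both sides of 0 for most genes, whereas those of the MYD88 start and body, the CD14 start and the LY96 body lie on the right.

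Windows whose RPKM ranges at the 2 ages did not overlap numbered 3 of 74, beside 4.05% of all windows. Beside the MYD88 window these were the window upstream of LBP, higher at 5 months with 17 reads in all, and the ninth window of LY96 (39392947 to 39395946). The latter was higher at 16 months, with 0.0774 ± 0.00506 against 0.0462 ± 0.0148 RPKM (SD, n = 3), on 55 reads in all. Neither held enough reads to be tested. No start region of the 10 had ages apart, beside 3.14% of all starts.

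Between animals, the only call was at the LBP start, and it was lost under several alternatives. With age as a covariate, 1 of 17 start and body values was called between the 3 animals, beside 1.95% of all starts and 0.762% of all bodies. At the LBP start the highest animal exceeded the lowest 4.12 times (edgeR, adjusted p = 0.0394). Animal 2 had 0.119 and 0.184 RPKM at 5 and 16 months, and the other 4 libraries 0.0308 to 0.0872 RPKM. After TMM scaling animal 2 had 20.4 and 45.3 CPM, animal 1 had 17.9 and 8.68 CPM, and animal 3 had 9.96 and 5.54 CPM. The variance was shared over genes here as well, so the call does not measure the spread between the 2 libraries of an animal. The call was lost with DESeq2 (adjusted p = 0.438), with scaling by library size only (adjusted p = 0.116) and without animal 2 (adjusted p = 0.398) or animal 3 (adjusted p = 0.719). Without animal 2, the starts of TICAM1, TICAM2, TLR4 and TRAF6 were called in its place, with 4792 starts and bodies over all genes in place of 502, and without animal 3 none was, with 72 over all genes.

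TICAM1 and TIRAP starts were low in animal 3 at both ages. At the body of MYD88 the order of the animals changed with age. By RPKM animal 3 was the lowest there at 5 months and the highest at 16 months. After TMM scaling it lay between the other animals at 5 months and was again the highest at 16 months. At the TICAM1 start animal 3 had 0.447 and 0.458 RPKM and the other 4 libraries 0.918 to 1.16 RPKM, a range of 1.10 on the log2 scale between animals (edgeR, adjusted p = 0.421). At the TIRAP start it had 0.287 and 0.332 RPKM against 0.498 to 0.848 RPKM, a range of 1.15 (adjusted p = 0.392). Neither was called, although the libraries of animal 3 did not overlap the others. These ranges depended on the scaling. By library size only both starts were called (adjusted p = 3.4e-05 and 0.000377), with ranges of 1.14 and 1.18, in a fit that called 3870 starts and bodies over all genes in place of 502. With loess offsets the ranges were 0.28 at TICAM1 (adjusted p = 0.662) and 0.50 at TIRAP (adjusted p = 0.329). The median range between animals was 1.28 for the 8 starts and 0.44 for the 9 bodies, beside 0.83 and 0.67 over all genes.

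Among 36 further genes of the pathway, 35 were labelled in the files and 28 starts and 32 bodies could be tested between ages. None was called by edgeR, beside 0.0324% of all starts and 0.0163% of all bodies. At an unadjusted p under 0.05 there were 0 as well, beside 625 of 18545 starts and 97 of 18363 bodies. With shares this low, 0 calls does not set these genes apart. Positive log2 fold changes were found at 17 starts and 15 bodies, beside 55.1% and 56.2% of all genes. The lowest p among the starts was that of PIK3AP1, an adaptor that links the receptor to PI3K, with 0.57 ± 0.34 (SE, adjusted p = 1.00). Among the bodies it was that of TLR5, the flagellin receptor, with 0.36 ± 0.31 (adjusted p = 1.00).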

How the data were processed

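Genomic DNA of 6 fibroblast cultures was measured by MIRA-Seq. The authors placed filtered reads on genome build UMD v3.1 using NextGENe 2.3.4 and deposited unnormalized read counts per 3 kb window. The deposited files also give the highest coverage depth of a window, a signal not scaled to library size, which was read only relative to the read count. The deposited coding-sequence numbers and gene labels were used as they stand, 1 label per window, so that starts are resolved to windows only. How PCR copies and multiply matching reads were treated is not known from the sources used here.

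A gene was a symbol on 1 chromosome and strand. Counts were tested in R 4.3.3 with edgeR 4.0.16 (quasi-likelihood test, TMM factors, animal as block) and, as an alternative, DESeq2 1.42.0. Windows needed 1 CPM in 3 of 6 libraries, starts and bodies 10 reads in 3 libraries. Calls needed an FDR below 0.1 and a fold of at least 2. A positive log2 fold change means more signal at 5 months. SE is the log2 fold change over the root of F. For starts and bodies between ages its variance was shared over genes, so that it does not follow the 3 animals of a gene. For windows between ages the variance was mostly shared over windows, and for start against body partly over genes. The tests between animals used the same variance as the age tests of starts and bodies. Each test covered all genes or windows. For start against body, the counts of an animal were summed over ages and offset by library total and length. Levels were computed in Python 3.11.15, leaving out 1146 windows without positive length. Scripts were tested on simulated data.

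The text names the 10 genes, their starts, bodies, first and highest windows, tested windows, genes labelled upstream, and for other pathway genes those with the lowest p. Windows with ages apart, and further windows described along a gene, were named after their values were seen. The genes and lists were chosen with earlier results of these data known. The pairing comes from the labels, which give the animal of each library. Deviations from the age mean correlated between the libraries of animals 1, 2 and 3 at 0.158, -0.0857 and 0.575 for starts and 0.270, -0.219 and 0.723 for bodies. Alternatives were other tests, scalings, filters and region definitions, no block, and leaving out each animal.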

Additional observations from a re-analysis of the deposited data

How the results depend on the processing

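Depth limits most of these values, since a typical window held 7 reads per library. The count of LPS genes or windows called between ages was 0 under each of the 11, 12 and 13 alternatives for windows, starts and bodies, leaving out any animal included. The animal is the replicate block of the age tests, and with no replicate block the counts were again 0. Without the block only 0 windows, 1 start and 0 bodies were called over the genome. Over all alternatives the genome-wide calls ran from 0 to 1128 windows, 0 to 136 starts and 0 to 200 bodies. Where so few were called, a count of 0 among the LPS genes says little about them. Start against body gave 3 to 5 called genes, and 4 with no replicate block. The count called between animals was 2 with the likelihood-ratio test, 0 with DESeq2 and 2 with library size only. It was 0 to 4 when animals were left out. Over all genes these fits called 1769, 62, 3870 and 72 to 4792, in place of 502. The count stayed at 1 with loess offsets (1731 over all genes), a filter of 1 CPM (1571), DESeq2 size factors (196) and no filter (201). The TICAM2 start was added by the likelihood-ratio test. With the filter of 1 CPM it was the 1 called, and the LBP start was not tested. Of 287 single age values, 258 kept their direction and 29 turned, none of them called, and the cause was not tested. The window of TRAF6 with coding sequence 1 gave -0.070 with loess offsets and -0.0019 with a filter of 10 reads. The LBP start gave -0.0068 with DESeq2 size factors, -0.093 with loess offsets, -0.19 with no replicate block and -0.19 with the first window only. The LBP body gave -0.0060 with DESeq2, -0.0083 with its size factors, -0.027 with library size only, -0.0086 with no replicate block and -0.12 over all labelled windows. The TICAM2 body gave -0.021 with DESeq2, -0.024 with its size factors, -0.060 with library size only, -0.0022 with loess offsets and -0.018 with a filter of 1 CPM. In start against body, the first window alone gave 0.23 at IRAK4 and 0.015 at TICAM1. Leaving out an animal gave ranges of -0.48 to 0.77 at the LBP start, -0.85 to 0.35 at the TLR4 start, -1.32 to 0.16 at the TRAF6 start and -0.16 to 0.51 in the second TICAM1 window. In bodies the ranges were -0.079 to 0.70 at TLR4, -0.48 to 0.50 at IRAK4, -0.46 to 0.29 at LBP, -0.69 to 0.39 at TICAM2, -0.20 to 0.17 at TRAF6, -0.23 to 0.79 at TICAM1 and -0.38 to 0.024 at TIRAP. The TRAF6 window with coding sequence 1 gave -0.0025 without animal 2, and LBP start against body -0.16 to 1.11.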

Other observations

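Among the 35 further genes of the pathway, 6 starts exceeded 0.5 RPKM, beside 2 of the 10 LPS genes and 9.00% of all genes. The genes named here were picked after their values were seen. TLR9, an endosomal receptor for CpG DNA, had 2.11 ± 0.797 RPKM (SD, n = 6) at its start and 2.28 ± 0.831 RPKM in its body, whereas TLR4 had 0.0564 and 0.0758 RPKM. The starts of SIGIRR, a receptor that restrains the pathway (1.80 ± 0.743 RPKM), and of TRAF3, a ligase of the interferon branch (1.65 ± 0.633 RPKM), were also high. IRF7 (0.915 ± 0.359 RPKM) and IRAK1 (0.753 ± 0.302 RPKM) followed. The start of TOLLIP, an inhibitor that binds IRAK proteins, had 0.510 ± 0.109 RPKM and its body 3.41 ± 1.29 RPKM. In contrast, IRAK3, an inhibitory pseudokinase, had 0.0641 ± 0.0350 RPKM at its start. The 33 bodies had a median of 0.168 RPKM, beside 0.0817 RPKM over all genes, and 9 exceeded 0.5 RPKM, beside 18.3% of all genes.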
